A study of Mus musculus with 36 samples.

Results

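The monosome fraction of embryonic cortex was compared between conditional heterozygotes (cHet) for a loss-of-function (LoF) allele of Ddx3x and controls without Cre. The libraries were chosen by their labels, as the monosome libraries of the LoF cross, and they number 6 of 36, with 3 cHet and 3 control. The cHet embryos were Emx1-Cre/+;Ddx3x lox/+ and the control embryos were Ddx3x lox/+, so both groups carried the lox allele and only the cHet carried Cre. All embryos were female, at stage E14.5, and untreated, and each library came from a pool of the cortices of 2 embryos of 1 genotype. Input libraries came from part of each lysate before the gradient, polysome libraries from the same gradients, and a second cross compared Emx1-Cre/+;Ddx3x-T532M lox/+ with Emx1-Cre/+. Cre under Emx1 acts in dorsal telencephalic progenitors and in the cells they give rise to, so blood, vessel, meningeal and ventral cells in the tissue are not recombined. The strain, the litter of each embryo and the gradient fractions pooled as monosome are not given in the sources used here. The p-values therefore measure only the spread between libraries of these pools. In the main fit that spread was estimated over all 3 fractions, with the libraries of 1 pool treated as separate.

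Ddx3x is an X-linked gene for a DEAD-box RNA helicase that works with the scanning ribosome and helps it through structured 5′ ends of mRNAs. In a sucrose gradient the monosome fraction holds RNAs with a single ribosome, which include mRNAs with a short reading frame, mRNAs that initiate rarely, and other particles of like size. A change there can therefore come with a change in total RNA or with a shift from or to the polysomes, so values from the input and polysome libraries of the same pools are given beside the main results.

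The 6 libraries held 38566139 to 44573081 read pairs in genes. The Cre driver gene Emx1, itself a marker of dorsal cortex, was measured at 42.4 to 57.5 CPM (read pairs of a gene scaled to library size), and all 12 markers of cortical identity were measured. Xist was at 57.3 to 83.0 CPM. The 4 Y-linked genes Ddx3y, Kdm5d, Uty and Eif2s3y together held 2 to 75 read pairs per library. A pair of libraries of opposite genotype stood apart. On the first principal component, with 33.7% of the variance, control 2 (at -20.4) and cHet 1 (at -17.6) lay together, while cHet 2 and cHet 3 lay at 19.5 and 23.5. In a fit with weights for library quality, control 2 and cHet 1 received the lowest weights, 0.624 and 0.342, against 1.04 to 2.21 for the other 4.

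Ddx3x itself was at 284, 344 and 281 CPM in the 3 control libraries and at 255, 178 and 198 CPM in the 3 cHet libraries. All 3 cHet libraries lay below all 3 controls, with cHet 1 the closest to them. The log2 fold change was -0.53 (SE 0.22), with an unadjusted p of 0.0262 and an adjusted p of 0.9997 in edgeR's quasi-likelihood test. In read pairs the sum over the 3 cHet libraries was 30715 against 46753 in controls, a depth-scaled ratio of 0.694 (95% interval 0.684 to 0.704, counting error only). Ddx3x took a larger share of the polysome libraries, at 2516, 2093 and 2602 CPM in control and at 2267, 1721 and 1799 CPM in cHet, a log2 fold change of -0.32. In input it was at 156, 90.8 and 97.0 CPM against 62.8, 117 and 92.6 CPM, a log2 fold change of -0.33 with overlapping groups. In these bulk libraries, fewer cells with a functional allele and less RNA per cell cannot be told apart. The test over all 18556 genes called 2 genes at an adjusted p under 0.05 (0.0108%), and 779 genes (4.2%) had an unadjusted p under 0.05. Both genes called were higher in cHet, and both lie downstream of Ddx3x on chromosome X.

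The strongest signal was Gm5380, a processed pseudogene of Cct7, which encodes a subunit of the chaperonin that folds actin and tubulin. Gm5380 is annotated as 1 exon on the plus strand at chrX:13302285-13304420 of GRCm38, 8232 bp past the end of Ddx3x. Its first 209 bases and its last 567 bases match the Cct7 mRNA. The first stretch is shown beside the same stretch of Cct7 because reads from the parent gene could be counted here; from the GENCODE transcripts of GRCm38, capitals mark the 6 bases that differ.
Gm5380 (chrX:13302285-13302493, plus strand): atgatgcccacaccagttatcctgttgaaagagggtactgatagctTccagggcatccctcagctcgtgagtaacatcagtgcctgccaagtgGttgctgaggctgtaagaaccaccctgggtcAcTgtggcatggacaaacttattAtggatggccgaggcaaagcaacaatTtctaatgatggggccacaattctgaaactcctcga
Cct7 (mRNA of the gene at chr6:85451514-85468475, plus strand): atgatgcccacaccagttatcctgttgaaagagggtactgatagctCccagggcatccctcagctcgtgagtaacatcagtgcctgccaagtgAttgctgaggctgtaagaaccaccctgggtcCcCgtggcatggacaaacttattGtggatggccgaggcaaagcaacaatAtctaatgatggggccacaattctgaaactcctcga

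The 2 sequences were 97.13% identical over these 209 bases, and 93.5% identical over the last stretch. The bases between the 2 stretches were not aligned here.

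Gm5380 was nearly absent from control monosomes and present in every cHet library. It held 0, 2 and 1 read pairs in the 3 control libraries and 111, 131 and 138 in the 3 cHet libraries, which is 0, 0.0428 and 0.0188 CPM against 2.37, 2.51 and 2.88 CPM. The groups did not overlap, and cHet 1 lay with the other cHet libraries. The ratio of the summed read pairs was 134 (95% interval 45.5 to 652, counting error only), and the fitted log2 fold change was 6.87 (SE 0.67, adjusted p = 7.02e-05 in edgeR's quasi-likelihood test). Cct7, the parent gene, was at 70.7, 79.6 and 75 CPM in control and at 76.6, 79.6 and 79.8 CPM in cHet, a log2 fold change of 0.07 (SE 0.10). Gm5380 was also seen in the other fractions of the cross. It held 2 read pairs in control input and 51 in cHet input, a ratio of 27.8 (7.32 to 236), and 3 against 41 in the polysome, a ratio of 14.1 (4.49 to 71.0). In the T532M cross it held 4 read pairs in control and 2 in cHet input, 7 and 2 in the polysome, and 0 read pairs in all 6 monosome libraries, which allows up to 0.0246 CPM in the 3 T532M cHet libraries together.

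Nyx, which encodes nyctalopin, a leucine-rich repeat protein of retinal bipolar cells, was the second gene called. It lies on the plus strand at chrX:13466110-13489313 of GRCm38, 172057 bp past the end of Ddx3x. Nyx held 18, 10 and 17 read pairs in control and 67, 85 and 92 in cHet, or 0.324, 0.214 and 0.32 CPM against 1.43, 1.63 and 1.92 CPM. Again the groups did not overlap and all 3 cHet libraries were alike. The ratio of the summed pairs was 5.73 (4.16 to 8.06), and the fitted log2 fold change was 2.52 (SE 0.38, adjusted p = 0.0276 in edgeR's quasi-likelihood test). In input Nyx held 27 read pairs in control and 70 in cHet, and in the polysome 16 and 48. In the T532M monosome it held 64 in control and 60 in cHet. The call of Nyx was lost, with the log2 fold change between 2.36 and 2.61, when any pool other than cHet 1 was left out (adjusted p of 0.0914 to 0.706 in edgeR), when the monosome libraries were fitted alone (0.0924), or when only coding genes were tested (0.0749). Gm5380 passed in every fit that tested it.

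No other gene around Ddx3x passed. Within 500000 bp, 24 genes are annotated including Ddx3x, 13 of them held at least 10 read pairs over the 6 libraries and 12 were tested. Usp9x, a deubiquitinase gene upstream of Ddx3x, was at 103, 140 and 113 CPM in control and at 122, 103 and 115 CPM in cHet, a log2 fold change of -0.06. Cask, a synaptic scaffold kinase gene that lies 223027 bp past the end of Ddx3x, just beyond Nyx, was at 74.4, 85.3 and 77.9 CPM against 85.7, 80.4 and 81.3 CPM, a log2 fold change of 0.06. The other 7 tested neighbours had log2 fold changes of -0.11 to 0.11, and their groups overlapped. Over chromosome X as a whole, 635 genes were tested, these 2 passed, and the median log2 fold change was -0.02.

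**Figure D1:**
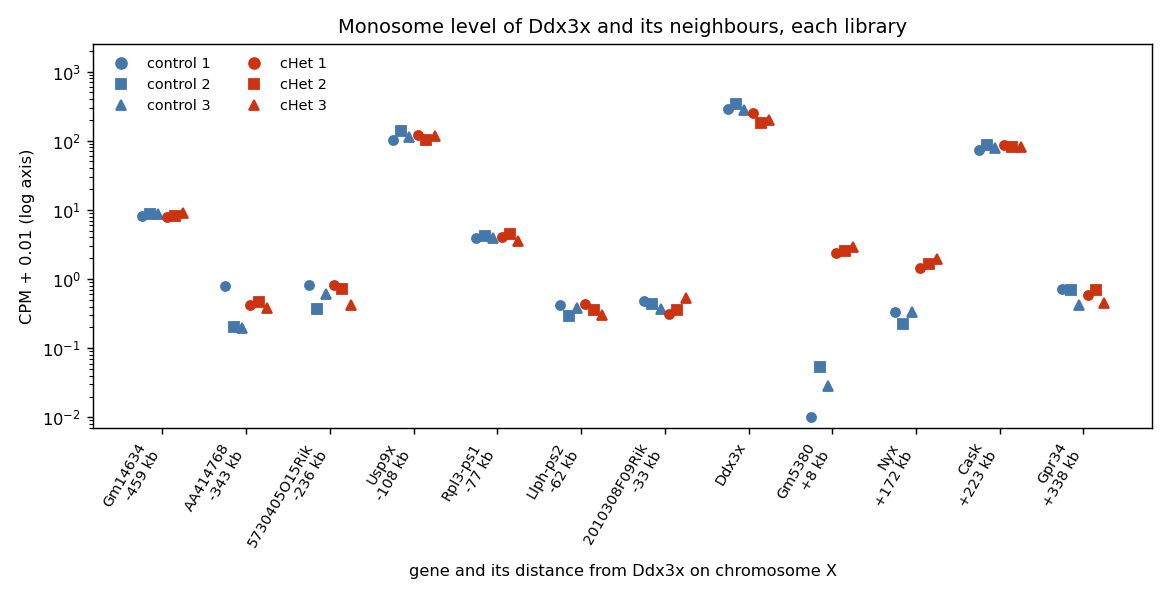
Level of Ddx3x and the 11 tested genes around it in each monosome library, in CPM plus 0.01 on a log axis, ordered by distance from Ddx3x in kilobases, with blue for control and red for cHet. Gm5380 and Nyx lie higher in all 3 cHet libraries, Ddx3x lies lower, and the other 9 genes overlap between the groups.

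Across all genes the effect in the monosome was small. The median log2 fold change was 0.01, 52.6% of genes were above 0, and 90% of genes lay between -0.51 and 0.39. In 1034 genes (5.57%) all 3 cHet libraries lay above all controls, and in 923 genes (4.97%) all 3 lay below. Of 14529 genes annotated as protein-coding, 394 were higher and 265 lower with an unadjusted p under 0.05, beside 2.37% and 1.83% of all genes tested.

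**Figure D2:**
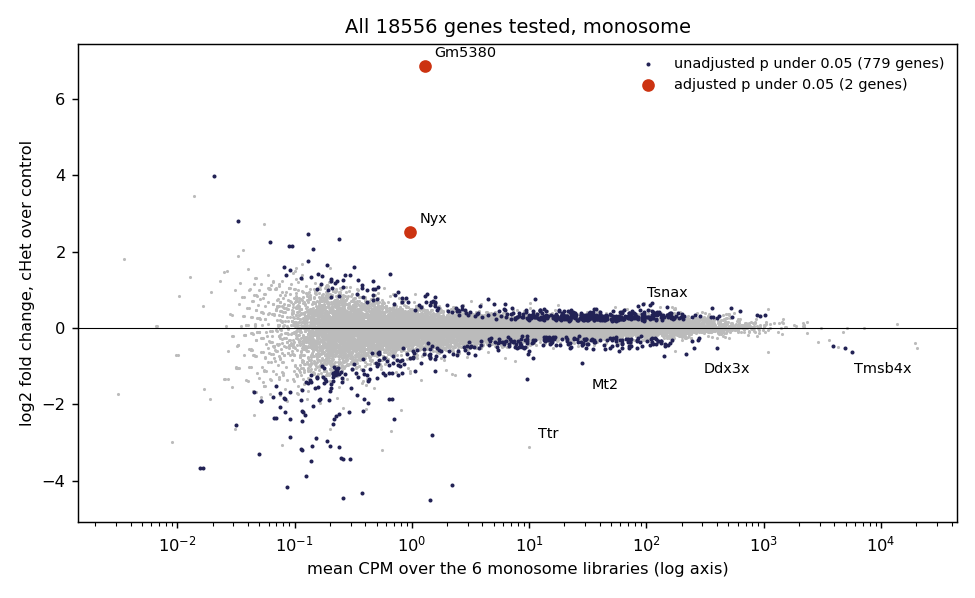
Log2 fold change of cHet over control against the mean level in CPM on a log axis, for all 18556 genes tested in the monosome; dark points have an unadjusted p under 0.05 and red points an adjusted p under 0.05. Gm5380 and Nyx are the 2 red points, both near 1 CPM, and most genes lie close to 0.

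The genes with the smallest p below all controls had short reading frames. Of the 10 such genes with an assigned name and a mean of at least 2 CPM, 8 had an annotated coding sequence of up to 300 nt, and the median was 255 nt, against 1446 nt over the 11499 coding genes at that level. Their unadjusted p lay between 0.000267 and 0.00244, and none passed (adjusted p = 0.9997 for each in edgeR). The coding sequences of Tma7, Tmsb4x and of Ost4, which comes up below, show how short these frames are. They are from the GENCODE transcript with the longest coding sequence, with the start and stop codons in capitals.
Tma7 (chr9:109078391-109082342, minus strand, 64 codons in 4 exons): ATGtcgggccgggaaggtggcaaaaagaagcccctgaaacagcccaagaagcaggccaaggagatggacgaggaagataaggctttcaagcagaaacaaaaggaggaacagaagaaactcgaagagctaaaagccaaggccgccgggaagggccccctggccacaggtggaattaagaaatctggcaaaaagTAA
Tmsb4x (chrX:167207501-167208325, minus strand, 50 codons in 3 exons): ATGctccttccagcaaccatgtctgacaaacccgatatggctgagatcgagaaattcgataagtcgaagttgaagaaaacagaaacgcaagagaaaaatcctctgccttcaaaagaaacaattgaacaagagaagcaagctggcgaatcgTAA
Ost4 (chr5:30907422-30907535, minus strand, 37 codons in 1 exon): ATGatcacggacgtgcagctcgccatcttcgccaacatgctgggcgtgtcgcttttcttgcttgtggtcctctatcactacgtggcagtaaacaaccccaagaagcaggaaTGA

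Tma7, which encodes a small protein that associates with translating ribosomes, had the smallest p of the 10. It was at 166, 170 and 162 CPM in control and at 127, 115 and 117 CPM in cHet, a log2 fold change of -0.47 (SE 0.11). The gap between the groups was wider than the range within either, and cHet 1 was the highest of the cHet libraries. Tmsb4x, for the actin-sequestering peptide thymosin beta 4, was at 5775, 5801 and 5944 CPM in control and at 4712, 3716 and 3731 CPM in cHet, a log2 fold change of -0.53 (SE 0.15). It was among the most abundant mRNAs of the fraction.

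Mt2, for a metal-binding metallothionein, had the largest change of the 10. It was at 33.1, 32 and 46.1 CPM in control and at 21.3, 20.7 and 16.5 CPM in cHet, a log2 fold change of -0.92 (SE 0.22). Its relatives Mt1 and Mt3, chosen after their values were seen, had log2 fold changes of -0.51 (SE 0.16) and -0.43 (SE 0.19), and their groups did not overlap either.

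Timm8b and Mrps21, for an import chaperone and a ribosomal protein of mitochondria, had log2 fold changes of -0.43 and -0.37. Timm8b was at 176, 181 and 174 CPM in control and at 140, 124 and 129 CPM in cHet. Polr2k, for a small subunit shared by the RNA polymerases, Nop10, for a protein of H/ACA ribonucleoproteins, and Cops9, for a small subunit of the COP9 signalosome, had log2 fold changes of -0.44, -0.47 and -0.40. The 2 genes of the 10 with longer frames were Prmt8 and Hes1. Prmt8, for a brain-enriched arginine methyltransferase, was at 60.9, 63.3 and 46.9 CPM in control and at 43.9, 37.2 and 38.5 CPM in cHet (log2 fold change -0.52). Hes1, the Notch effector of radial glia, was at 41.3, 39.9 and 42.1 CPM in control and at 36.3, 29.97 and 29.3 CPM in cHet (log2 fold change -0.37). In 8 of the 10 genes cHet 1 was the highest, and so the nearest to control, of the 3 cHet libraries.

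The 10 genes above all controls with the smallest p had ordinary reading frames, with a median coding length of 1215 nt and none of up to 300 nt. Casp6, an executioner caspase gene, had the smallest p (0.000344). It was at 11.2, 10.4 and 9.53 CPM in control and at 14.9, 14.6 and 13.1 CPM in cHet, a log2 fold change of 0.46 with an SE of 0.10 and an adjusted p of 0.9997 in edgeR. Tsnax, for the partner of the RNA-binding protein translin, had the largest change of the 10, at 71.9, 64.7 and 66.7 CPM in control and at 76.5, 107 and 119 CPM in cHet, a log2 fold change of 0.57 (SE 0.14). Here cHet 1 was close to control and the other 2 were not.

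Slc17a7, Plxnd1 and Sarm1 encode neuronal or axonal proteins. Slc17a7, the vesicular glutamate transporter VGLUT1, was at 81.0, 80.7 and 83.9 CPM in control and at 112, 98.9 and 117 CPM in cHet, a log2 fold change of 0.42 (SE 0.12). Plxnd1, a semaphorin receptor, and Sarm1, the NADase of axon degeneration, had log2 fold changes of 0.42 and 0.38. Mri1, of the methionine salvage pathway, Mettl5, the methyltransferase of 18S ribosomal RNA, and Dazap1, an RNA-binding protein, had log2 fold changes of 0.42, 0.45 and 0.36. Leng8 and Sh3glb2 had 0.46 and 0.41. In 7 of the 10 genes cHet 1 was the highest of the cHet libraries.

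**Figure D3:**
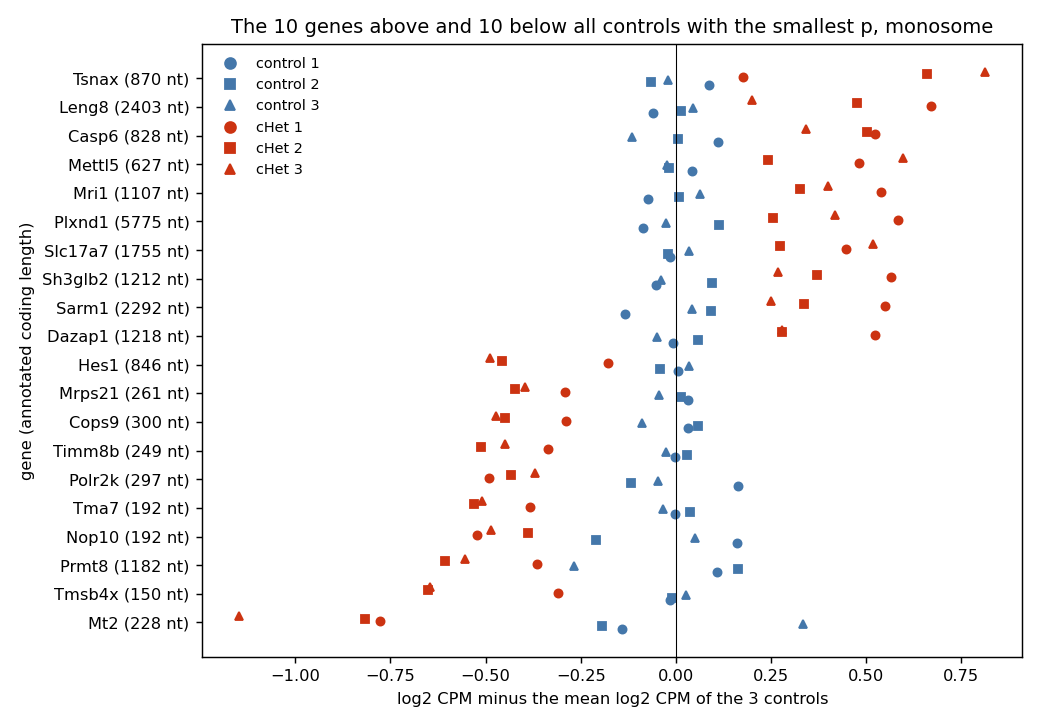
Log2 CPM of each library minus the mean log2 CPM of the 3 controls, for the 10 genes above and the 10 below all controls with the smallest p, with the annotated coding length beside each name. Red points (cHet) and blue points (control) do not overlap, by the choice of the genes, and 8 of the 10 lower genes have coding lengths of up to 300 nt.

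In input, most of the 10 lower genes did not share the direction, while 9 of the 10 higher genes did, with smaller log2 fold changes. The 10 lower genes had log2 fold changes of -0.44 to 0.13 in input (median 0.05), and 7 of the 10 were above 0 there. In the polysome they had -0.59 to 0.18 (median -0.11), and 9 of the 10 were below 0. The genes were picked on the monosome values, so the difference of their monosome effect from other effects is no separate evidence. An unadjusted p under 0.05 for that difference was found in 9 of the 10 against input, in 4 against the polysome and in 5 against the T532M monosome, and none passed over all genes. Prmt8 was lower in all 3 fractions, with -0.44 in input, -0.52 in the monosome and -0.53 in the polysome. In the T532M monosome the 10 lower genes had a median of -0.07, and 8 were below 0. The 10 higher genes had medians of 0.10 in input, 0.07 in the polysome and -0.05 in the T532M monosome. Of these 10, 9 were above 0 in input, 9 in the polysome and 3 in the T532M monosome. Their effect differed with an unadjusted p under 0.05 from that in input for 5 of the 10, from the polysome for 7 and from the T532M monosome for 7. Plxnd1 was the highest in the T532M monosome, at 0.62 (adjusted p = 0.0096 in edgeR).

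Coding length was then examined over all 11499 coding genes with a mean of at least 2 CPM. Of the 213 genes with a coding length of up to 300 nt, 35 were lower in cHet with an unadjusted p under 0.05 and 0 were higher, against 1.44% of all genes of at least 2 CPM lower and 2.93% higher (1.83% and 2.37% of all genes tested). All 3 cHet libraries lay below all controls for 46 of these 213 genes and above for 3, beside 4.97% and 5.57% of all genes tested. From 300 to 450 nt, 28 of 519 genes were lower and 2 were higher. From 450 to 600 nt the balance turned, with 30 of 687 higher and 10 lower, and from 600 to 900 nt 67 of 1491 were higher and 15 lower. Beyond 4000 nt, 16 of 941 were lower and 2 higher.

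The median of the shortest genes was -0.12 in the monosome, 0.07 in input, -0.03 in the polysome and 0.01 in the T532M monosome. By library, relative to the mean of the controls, the shortest genes had medians of 0.05, -0.10 and 0.04 in the controls and of -0.31, -0.06 and -0.05 in the cHet. Only cHet 1 lay outside the range of the controls. Control 2 and cHet 1, the libraries that stood apart, shared a trend with length: both were low in genes of up to 600 nt and high in genes over 1200 nt. Without the pool of cHet 1 the median of the shortest genes was -0.04, and 13 were called lower (against 0.25% of all genes tested) and 0 higher. In a fit of the 14539 coding genes alone, which leaves out Gm5380, 0 passed and 673 had an unadjusted p under 0.05. With a smooth trend on coding length also removed from each library, 0 passed and 785 had an unadjusted p under 0.05. The log2 fold change of Nyx was 2.52 in the first of these fits and 2.49 in the second. Both fits were chosen after seeing the data.

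**Figure D4:**
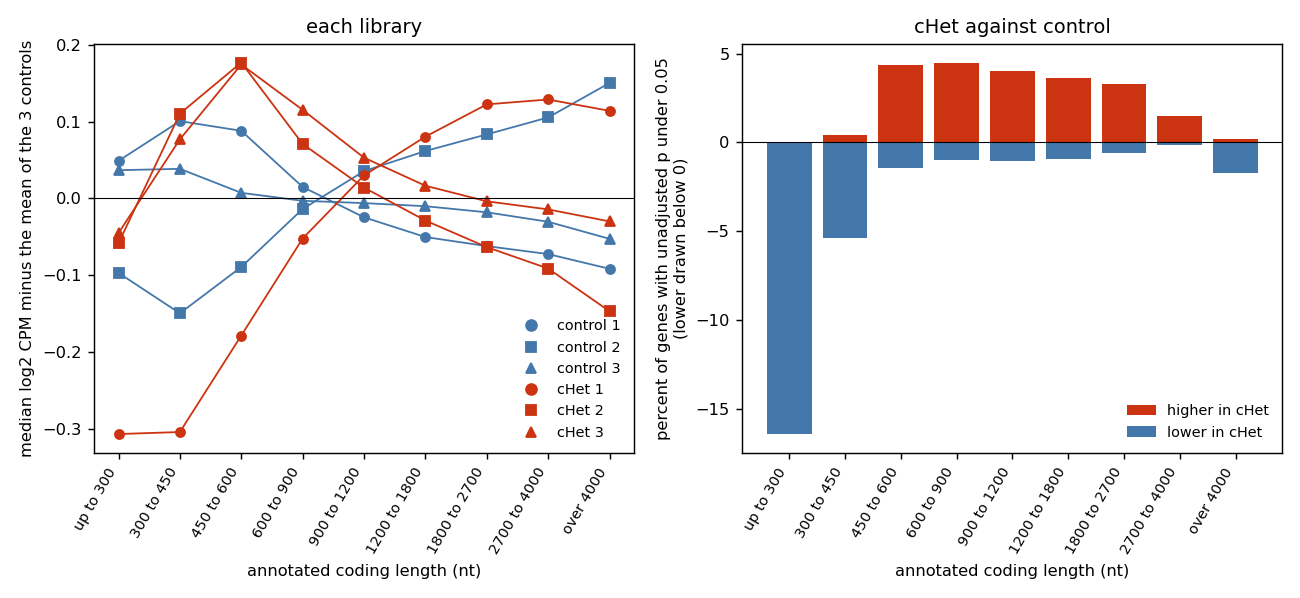
Left, median log2 CPM of each library minus the mean of the 3 controls, by bin of annotated coding length in nt. Right, percent of the genes of each bin with an unadjusted p under 0.05, drawn above 0 for genes higher and below 0 for genes lower in cHet; the shortest bin reaches 16.4% lower and 0% higher, while cHet 1 has the lowest value at -0.31 on the left.

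The 5′ leader is the part of an mRNA that the scanning ribosome crosses, and its GC content and length are used as rough measures of structure. In genes with a leader of up to 45% GC the median log2 fold change was -0.04, and it was 0.05 in leaders over 75% GC. In that top bin 70 of 1835 genes (3.81%) were higher with an unadjusted p under 0.05, against 2.93% of all genes at that level. There 11 (0.599%) were lower, against 1.44%. In 178 of these 1835 genes all 3 cHet libraries lay above all controls, and in 29 below. The shares were 5.57% and 4.97% over all 18556 genes tested, a wider set that includes non-coding genes and genes under 2 CPM. The share of genes with a log2 fold change below 0 was 59.6% in the lowest GC bin and 33.3% in the highest. By library, the bin over 75% GC had medians of -0.04, 0.07 and -0.03 in controls and of 0.09, -0.03 and 0.08 in cHet, so the groups overlapped. From the lowest bin to the highest, the medians went from -0.22 to 0.03 in input, a wider span than in the monosome, from 0.00 to 0.01 in the polysome, and from -0.11 to 0.07 in the T532M monosome. By leader length the medians ran from 0.00 (up to 50 nt) to 0.04 (over 500 nt). No test of these trends was run.

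The translation machinery showed no called gene. Of 44 large-subunit ribosomal protein genes tested, 39 had a log2 fold change above 0 and 5 below, with a median of 0.07 and 0 with an unadjusted p under 0.05. Of 31 small-subunit genes, 28 were above 0, with a median of 0.08, beside 52.6% of all genes above 0. In input the medians of the lists were both 0.12, and in the polysome they were -0.02 and -0.01. The libraries of cHet disagreed: the large-subunit medians were -0.22, 0.30 and 0.03 in cHet 1 to 3, against -0.02, 0.00 and 0.03 in controls. Among 16 cap-binding and scanning factors, the partners of DDX3X in initiation, 0 had an unadjusted p under 0.05 and the median was -0.03. Eif1ax, for the start-site selection factor eIF1A, was at 184, 113 and 155 CPM in control and at 103, 223 and 255 CPM in cHet, with cHet 1 the lowest of the 6. The 13 eIF3 subunits had a median of 0.00 and a range of -0.12 to 0.12, the 10 eIF2 and eIF2B genes a median of -0.02, and the 12 elongation and release factors a median of 0.05. Of 20 ribosome-associated and nascent chain factors only Tma7 had an unadjusted p under 0.05.

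Of the 12 mRNAs reported elsewhere as sensitive to DDX3X, 0 passed. With an unadjusted p under 0.05, 2 were higher and 1 lower, beside 2.37% and 1.83% of all genes tested. All 3 cHet libraries lay above all controls for 2 of the 12 and below for 2, beside 5.57% and 4.97%. The median was 0.05, beside 0.04 in input and 0.03 in the polysome. Rcor2, for a corepressor in neural progenitors, was at 110, 111 and 108 CPM in control and at 127, 148 and 142 CPM in cHet (log2 fold change 0.34). Odc1, for ornithine decarboxylase, was at 324, 335 and 343 CPM in control and at 370, 432 and 421 CPM in cHet (0.29). In neither gene did the groups overlap. Tmsb10, for thymosin beta 10, was at 4349, 5139 and 4136 CPM in control and at 4076, 2885 and 2866 CPM in cHet (-0.47). Its groups did not overlap either, and its coding length was 201 nt. Rac1, Dvl1, Dvl2, Prkra, Ccne1, Atf5, Klf4 and Gnb2 had unadjusted p over 0.05.

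Among the 28 DEAD and DEAH box helicases, 2 besides Ddx3x had an unadjusted p under 0.05, beside 4.2% of all genes tested. Ddx5 was at 797, 859 and 840 CPM in control and at 1100, 1064 and 956 CPM in cHet, a log2 fold change of 0.32. Ddx17, its close relative, was at 744, 828 and 734 CPM in control and at 1192, 753 and 959 CPM in cHet, a log2 fold change of 0.33, and here the groups overlapped through cHet 2. The median of the 28 was -0.03, with -0.14 in input and 0.03 in the polysome. In the monosome 19 of the 28 had log2 fold changes below 0, against 47.4% of all genes.

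No mitochondrial gene passed, and most had log2 fold changes below 0. All 10 tested mRNAs of the mitochondrial genome had log2 fold changes below 0 (median -0.52), against 47.4% of all genes. In input 7 of the 10 were below 0 (median -0.54), while mt-Nd6, mt-Co2 and mt-Co3 were at 0.01, 0.31 and 0.54, and in the polysome the median was 0.08. Their medians by library were -0.24, 0.49 and -0.28 in controls and -0.16, -0.69 and -0.50 in cHet, and control 2, where mitochondrial genes took 10.2% of read pairs against 4.97 to 6.98% in the other 5, was far above the rest. Of 32 nuclear genes of oxidative phosphorylation, 23 had log2 fold changes below 0 (47.4% of all genes did), and 4 were lower with an unadjusted p under 0.05 (1.83% of all genes were): Uqcr10, Uqcr11, Ndufc1 and Atp5k, small subunits of the respiratory complexes with coding lengths of 168 to 228 nt. Uqcr10 was at 131, 133 and 130 CPM in control and at 111, 92.0 and 92.0 CPM in cHet, a log2 fold change of -0.41 (SE 0.15). The median coding length of this list was 282 nt, and in its library medians cHet 1 (-0.49) and control 2 (-0.18) were again the lowest, while cHet 2 and cHet 3 (both 0.05) lay within the range of the controls. The list's median was -0.10 with all pools and 0.04 without the pool of cHet 1, and it was 0.10 in input and 0.01 in the polysome.

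Cortical cell types differed little. The 12 markers of cortical identity had a median of 0.07 and those of deep and upper layer neurons 0.09, beside 0.01 for all genes. Emx2, a dorsal identity factor, was at 98.1, 93.0 and 99.0 CPM in control and at 86.6, 79.8 and 84.3 CPM in cHet (log2 fold change -0.21). The 11 radial glia genes had a median of -0.09, with Hes1 the 1 gene with an unadjusted p under 0.05. Intermediate progenitor genes had a median of 0.04 and Cajal-Retzius genes -0.03. The 25 cell cycle genes had a median of -0.02 and 0 with an unadjusted p under 0.05, as did the 12 genes of apoptosis and the p53 response (-0.05).

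Markers of cells outside the Emx1 lineage mostly had log2 fold changes below 0, and none passed. All 12 erythroid genes had log2 fold changes below 0 (median -0.61), against 47.4% of all genes, and 6 were lower with an unadjusted p under 0.05, against 1.83%. Their medians were -0.22 in input and -0.16 in the polysome. Hba-a1, an alpha globin gene with a near-identical copy that could share its reads, was at 155, 204 and 167 CPM in control and at 164, 83.8 and 68.2 CPM in cHet. The summed erythroid level was 1871 to 2493 CPM in control and 1123 to 1884 CPM in cHet, with cHet 1 inside the control range. All 12 choroid plexus and hem genes were also below 0 (median -0.94), as they were in input (-1.22) and the polysome (-1.08). Ttr, the main choroid plexus marker, was at 20.3, 0.3 and 32.9 CPM in control and at 6.03, 0.23 and 0 CPM in cHet, and Otx2 had a log2 fold change of -1.23 (unadjusted p = 0.00797). For ventral forebrain, 13 of 14 genes were below 0 (median -0.25, with -0.24 in input and -0.25 in the polysome), with control 2 the highest in the list at 557 CPM summed. The lists of microglia, endothelium and pericytes, and meninges had medians of -0.29, -0.16 and -0.20 in the monosome. Their medians were 0.05, 0.05 and -0.02 in input and 0.13, 0.15 and 0.01 in the polysome, so the monosome values were not matched there. Their summed monosome levels were 18.7 to 25.6, 72.3 to 104 and 68.5 to 93.9 CPM over the 6 libraries. Different shares of these cells among the pools were not tested as a source of any result above.

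**Figure D5:**
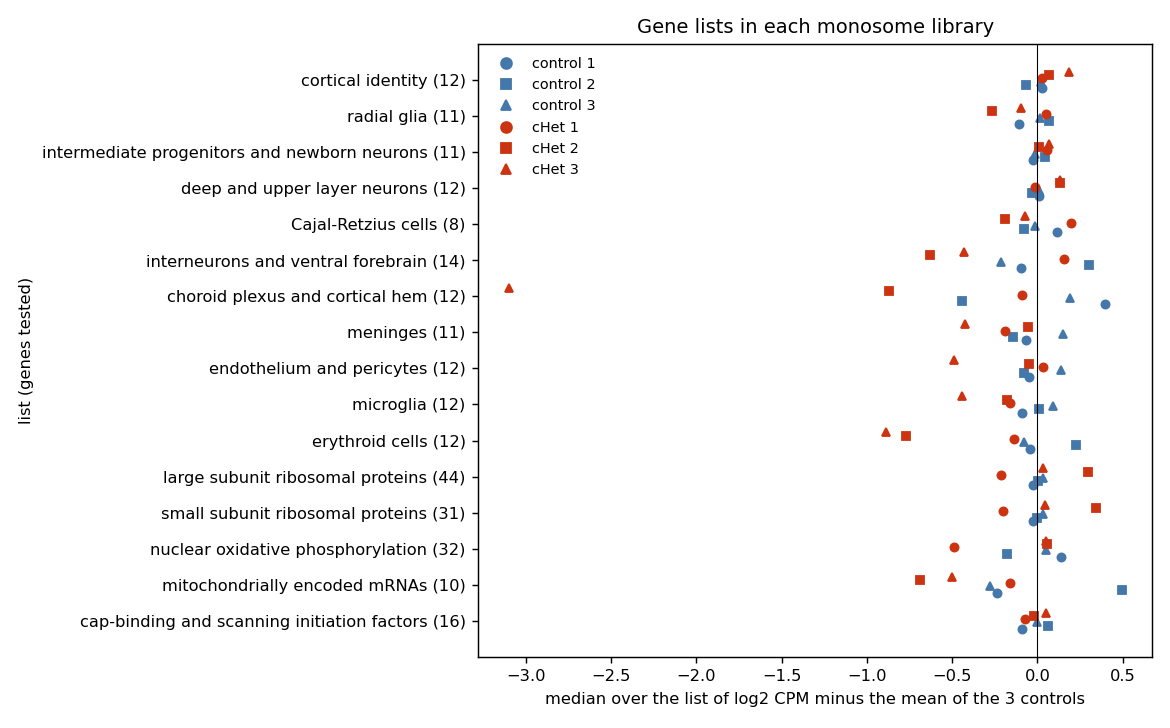
Median over each list of log2 CPM minus the mean of the 3 controls, in each monosome library, with the number of genes tested in brackets. The choroid plexus list spans the widest range, with cHet 3 at -3.10, and in the erythroid and ventral forebrain lists cHet 2 and cHet 3 lie below the 3 controls while cHet 1 lies among them or near them.

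Of the remaining lists, the snoRNA host genes had a median of -0.12, and Snhg1 was at 114, 114 and 113 CPM in control and at 98.6, 84.9 and 83.8 CPM in cHet (log2 fold change -0.35). Among 11 nuclear long non-coding RNAs, Miat was at 429, 477 and 402 CPM in control and at 746, 490 and 643 CPM in cHet (0.52, SE 0.23), and the list's median was -0.10. Of 10 immediate early genes 8 were below 0, with Ier2 at a log2 fold change of -0.31. Irf7, for an interferon regulator, had 0.27, 0.193 and 0.113 CPM in control and 0, 0.0574 and 0.0626 CPM in cHet, at the lower limit of detection. The lists of the stress response through upstream reading frames, ribosome quality control, axon guidance and replication-dependent histones had medians of -0.01, -0.04, -0.02 and 0.10 and held no gene with an unadjusted p under 0.05.

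Leaving out the pool of cHet 1 in all 3 fractions changed the number of genes called from 2 to 180 of 18797 (0.958%), with 133 higher (0.708%) and 47 lower (0.25%). For 129 of the 180 genes, cHet 1 lay on the other side of the control mean from the other cHet libraries, and for 51 on the same side. The 5 with the smallest p among the higher genes with a name and a mean of at least 2 CPM were Tsnax, Tpm3, Arf3, Rab1b and H1f0, which encode an RNA-processing cofactor, a tropomyosin, small GTPases and a linker histone. Arf3 was at 101, 72.4 and 79.5 CPM in control, at 147 and 166 CPM in cHet 2 and 3, and at 72.5 CPM in cHet 1. H1f0 was at 347, 260 and 291 CPM in control, at 444 and 620 CPM in cHet 2 and 3, and at 221 CPM in cHet 1. In both, cHet 1 was at or below the controls.

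The 5 among the lower genes were Hba-a1, Tma7, Onecut2, Uqcr10 and Ost4. Ost4, for a small subunit of the oligosaccharyltransferase, was at 163, 167 and 161 CPM in control, at 113 and 118 CPM in cHet 2 and 3, and at 134 CPM in cHet 1. Onecut2, a neuronal transcription factor gene, was at 31.2, 30.2 and 29.2 CPM in control, at 17.6 and 19.4 CPM in cHet 2 and 3, and at 28.4 CPM in cHet 1. Of the 10 lower genes described first, 7 were called without this pool, and of the 10 higher genes 1 was, Tsnax, beside 0.958% of all genes tested. Both sets were picked on these same libraries, so the counts are no separate evidence. When only the monosome library of cHet 1 was left out, 8 genes were called, all higher: Gm5380, Nyx, Tsnax, Tpm3, Arf3, Arf1, Rab7 and 1700052K11Rik. No cause for the difference of this pool was tested.

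The number of genes called differed between fits of these libraries. DESeq2 called 5 genes (0.0269%), 2 higher (0.0108%) and 3 lower (0.0162%), and the lower genes were Timm8b, Tma7 and Polr2k. A fit with limma and library quality weights called 61 (0.329%), 23 higher (0.124%) and 38 lower (0.205%), and 41 of the 61 were among the 180 called without the pool of cHet 1. With no filter on low counts, 33 genes were called (0.104%), 8 higher (0.0252%) and 25 lower (0.0789%). Without control 2 and cHet 1, 65 were called (0.349%), 30 higher (0.161%) and 35 lower (0.188%). Without the 3 pools with most Ttr in input, which are controls 1 and 3 and cHet 1, 940 were called (4.96%), 547 higher (2.88%) and 393 lower (2.07%), with control 2 as the only control left.

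The monosome effect was then set against the effects in the other fractions of the same lysates. In input 0 genes were called (0%) and 1996 (10.8%) had an unadjusted p under 0.05, and in the polysome 0 (0%) and 600 (3.23%). The difference between the monosome and the input effect was called for 0 genes (0%), with 936 (5.04%) at an unadjusted p under 0.05, and that between monosome and polysome for 0 genes (0%), with 561 (3.02%), in edgeR's quasi-likelihood test. The smallest p of the first difference belonged to CT010467.2, to Gm50209 and to Filip1l, a filamin-interacting protein gene. CT010467.2 was counted here among the gene models over ribosomal RNA. Filip1l was at 2.61, 6.27 and 6.35 CPM in control input and at 13.3, 14.7 and 18.9 CPM in cHet input, and in the monosome at 11.8, 12.8 and 7.5 CPM against 7.23, 9.38 and 12.6 CPM. The difference was thus an input difference, with overlapping groups in the monosome.

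For the difference from the polysome the smallest p belonged to Gm5560, Efcab15 and Sat1. Sat1, for the polyamine-acetylating enzyme, was at 22.6, 23.8 and 23.8 CPM in control monosomes and at 19.4, 18.9 and 17.4 CPM in cHet monosomes, and in the polysome at 1.74, 2.45 and 2.5 CPM against 2.52, 3.24 and 3.77 CPM. In each fraction the groups did not overlap, and the directions were opposite. The difference of the effects was -0.85 on the log2 scale (unadjusted p = 0.000837, adjusted p = 0.9999 in edgeR).

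The LoF monosome effect was compared with the T532M monosome effect in a fit of all 36 libraries. The T532M cross called 261 of 19121 genes (1.36%), and the difference of the effects called 0 (0%), with 1279 (6.69%) at an unadjusted p under 0.05 in edgeR, while DESeq2 called 43 and limma with quality weights 134. The controls differed between the crosses, with lox and no Cre in one and Cre and no lox in the other. Phf2, a histone demethylase gene, and Dvl3, a Wnt signalling gene, were among the genes with the smallest p of the difference, each with an adjusted p of 0.0547. Phf2 was at 150, 188 and 152 CPM in LoF control and at 184, 162 and 181 CPM in LoF cHet, with overlap. In the T532M cross it was at 151, 173 and 194 CPM in control and at 320, 308 and 413 CPM in cHet. For Ddx3x the log2 fold change was -0.53 in the LoF monosome and -0.04 in the T532M monosome, a difference of -0.49 (SE 0.37). For Nyx the difference of the effects was 2.52 (SE 0.65, unadjusted p = 0.000502, adjusted p = 0.308 in edgeR).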

How the data were processed

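Per the file headers, the authors counted read pairs per gene with featureCounts 2.0.3 on GRCm38 with GENCODE M25, with the reverse-stranded setting (2) and over whole gene spans, so intronic reads and reads of RNAs inside introns add to a gene's count. Tools named in the submitters' processing notes are STAR 2.7.11a, DESeq2 1.34.0, FastQC 0.11.7 and Subread 2.0.3. The deposited table holds raw counts for 55487 genes, from 50 bp reads. The authors' tables of DESeq2 results were not used here.

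The 18 libraries of the LoF cross were fitted together as 6 groups in edgeR 4.0.16 (R 4.3.3), with filterByExpr (18556 genes kept), TMM scaling and the quasi-likelihood test, and the monosome contrast was adjusted over all genes by Benjamini-Hochberg at 0.05. Levels are CPM on TMM library sizes. Alternatives used DESeq2 1.42.0, limma 3.58.1 with quality weights, other scaling and filters, blocks and left-out pools. On simulated data (18316 genes), 21% of 100 genes changed by a log2 fold of 0.5 and 79% of 100 changed by 1 were recovered, with 10 false calls. The changed genes all had a monosome mean of at least 2 CPM. Counts were drawn independently, with no shared pools and no libraries that stood apart, so these rates need not hold for the real libraries. Coding lengths and leaders are those of the annotated transcript with the longest coding sequence.

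The gene lists and the genes named were chosen with earlier results of these data known. The rule named Ddx3x and its neighbours within 500000 bp with at least 10 read pairs, every gene past the threshold, the 10 genes on each side with the smallest p among named genes of at least 2 CPM whose groups did not overlap, up to 4 genes per list, the 3 smallest p of each comparison of effects, and 5 genes on each side called without 1 pool. Replicate numbers did not pair control with cHet libraries: the correlations of same-numbered monosome libraries were -0.55, -0.66 and 0.05. Within a genotype, the same pool gave the highest correlation between fractions in 9 of 12 cases. Some genes that the rule named are not reported here.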

Additional observations from a re-analysis of the deposited data

How the results depend on the processing

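The count of 2 genes called in the monosome depended on the libraries and the tool. It was 5 with DESeq2 (Gm5380 and Nyx higher, Timm8b, Tma7 and Polr2k lower), 61 with limma and quality weights, 33 with no filter on low counts and 1 with the monosome libraries alone. It was 1 to 180 with each pool left out of all fractions and 1 to 8 with each monosome library left out. It was 940 without the 3 pools with most Ttr, which leaves 1 control assumed to vary like the other groups. Of fits chosen after seeing the data, it was 65 without control 2 and cHet 1, and 0 on coding genes alone, which leaves out Gm5380, both without and with a correction for coding length; Nyx then had a log2 fold change of 2.52 and 2.49 and an adjusted p of 0.0749 and 0.0867 in edgeR. With the replicate number as a block it was 2. The difference from input was called for 88 genes with no filter and 123 without the Ttr pools, and that from the polysome for 2 and 203; with the pool as a block both stayed at 0. The difference from T532M was called for 43 genes with DESeq2, 134 with limma, 36 with no filter, 4 with at least 1 CPM in 3 libraries and 14 with the replicate number as a block. Signs turned for Filip1l (0.15 with limma, 0.18 without control 2 and cHet 1, -0.362 to 0.038 over the left-out pools, and 0.0117 and 0.0389 without the monosome library of control 2 or cHet 1). Over the left-out pools Eif3k ran from -0.0175 to 0.238, Rps3a1 from -0.00279 to 0.339, Rps7 from -0.0267 to 0.223 and H1f4 from -0.0229 to 0.821. Without a monosome library alone, they turned to -0.0172, -0.00245 and -0.0263 (cHet 2) and, for H1f4, to -0.0224 (cHet 3). Without the Ttr pools signs turned for Nhlh2 (0.26), Sec61g (0.072), Phf2 (-0.13) and Dvl3 (-0.025). No cause of these changes was tested. Of 2232 values of 98 named genes, 2097 kept their sign and their side of the threshold, 104 newly passed, 13 lost their call, all of Nyx, and 18 changed sign.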

Other observations

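Pifo, Dynlrb2 and Dnajb13, genes of cilia, were chosen after their values were seen, each at a mean under 0.3 CPM, and none passed. Pifo was at 0.613, 0.214 and 0.584 CPM in control and at 0.128, 0 and 0 CPM in cHet. Dynlrb2, for a dynein light chain, was at 0.667, 0.0428 and 0.659 CPM in control and at 0.0641, 0.0383 and 0.0209 CPM in cHet, with overlap through control 2 and cHet 1. Dnajb13, of the radial spoke, was at 0.595, 0.128 and 0.565 CPM in control and at 0.128, 0.0191 and 0 CPM in cHet. Control 2 was the lowest control for each, as it was for Ttr, and the summed choroid plexus and hem list was at 92.2, 52.8 and 97.7 CPM in control and at 59.6, 47.8 and 32 CPM in cHet.

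Among ventral forebrain genes, Nkx2-1 was at 10.0 CPM in control 2 and at 0.162 and 2.28 CPM in controls 1 and 3, against 0.0574 to 0.599 CPM in the cHet libraries. Lhx8 was at 7.06 CPM in control 2, at 0.0901 and 0.641 CPM in the other controls and at 0.0835 to 0.791 CPM in cHet. The part of the tissue taken with each cortex was not tested.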
